A study of Ovis aries with 8 samples.

Results

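Naive-like sheep embryonic stem cells (ESCs) were compared with primed sheep ESCs across the transcriptome, with 4 libraries of each state and the 14779 of 28475 listed genes that reached 1 TPM or more in at least 2 of the 8 libraries. TPM is transcript abundance scaled for length and to the same total in every library. The primed state was represented by lines A and B and the naive-like state by a feeder-free culture and a culture on mouse embryonic fibroblasts (MEFs), with 2 libraries in each of these 4 groups. A gene was taken to agree when the comparison of states passed an adjusted p of 0.05 in limma and each of the 4 pairs of a naive-like with a primed group passed it in the same direction. In what follows, rose and fell refer to genes that agree, as naive-like minus primed on log2(TPM + 1), unless another test is named. Because the 4 pairs share libraries, agreement is a rule for choosing genes and not a set of independent tests.

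Naive pluripotency is the condition of the epiblast before implantation, and primed pluripotency that of the epiblast preparing to form the germ layers. In mouse and human, cells of both kinds express POU5F1 and SOX2 and differ in the signals that sustain them, in surface proteins and in metabolism. Inhibition of MEK, tankyrase, protein kinase C and SRC kinases is used in various combinations to hold cells near the naive condition.

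All cells came from the inner cell mass of sheep blastocysts and were cultured at 37 °C with 5% CO2. Primed cells were labelled wild type, were at passage 10 and grew in NBFR medium, which held Activin A and bFGF (both 20 ng/mL), the tankyrase inhibitor endo-IWR-1 (3 µM), BSA (1%), and the N2 and B27 supplements. Naive-like cells were labelled as converted from primed cells and were at passage 12. Their medium held human LIF and Activin A (both 20 ng/mL) and ascorbic acid (50 µg/mL), with the kinase inhibitors PD0325901 (1 µM, against MEK), Go6983 (2 µM, against protein kinase C) and CGP77675 (1.2 µM, against SRC) and the tankyrase inhibitor XAV-939 (2 µM). Activin A and a tankyrase inhibitor were therefore common to all 4 groups. State, medium and passage cannot be told apart in this design. Both naive-like cultures carried a single line name, and the primed line they came from is not stated in the sources used here. It was not stated whether the libraries of a group were separate cultures, so p-values measure the spread between these libraries, which may be technical. In bulk RNA, fewer cells of a type and less RNA per cell cannot be told apart.

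Within a group, libraries correlated at 0.982 to 0.985 across genes on log2(TPM + 1), against 0.921 to 0.933 between states, where genes are not independent replicates. Labels put each library at about 20 M paired reads, but TPM keep no counts, so the depth behind each value is unknown. As a check of the cell label, the pluripotency factor POU5F1 stood at 609.7 to 662 TPM in primed and 1532 to 1706 TPM in naive-like libraries. NANOG was at 9.12 to 16.4 TPM in primed and 83 to 136 TPM in naive-like libraries and SOX2 at 290.2 to 324 TPM in primed and 293 to 323 TPM in naive-like libraries. All 3 factors were present in every library. The libraries of the 2 states did not overlap for POU5F1 and NANOG, whereas they overlapped for SOX2 (log2 change 0.02 ± 0.054, adjusted p = 0.739).

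The comparison of states called 7493 genes (50.7% of those tested), of which 4233 were higher (28.6%) and 3260 lower (22.1%) in naive-like cells. Agreement was reached by 4429 genes (30.0%), with 2471 rises (16.7%) and 1958 falls (13.2%). These 2 shares are the background for every count below. In all 4429 the naive-like and primed libraries did not overlap, as was the case for 7046 genes tested (47.7%). The other 3064 state calls lacked at least 1 of the 4 pairs, and 1148 of them lacked exactly 1. Falls tended to be larger than rises, with a median log2 change of −0.91 over agreeing falls and 0.63 over agreeing rises, and 0.05 over all genes tested. A change of at least 2-fold was seen in 653 rises (4.42%) and 857 falls (5.80%), and of at least 4-fold in 153 (1.04%) and 211 (1.43%). On a scale of log2(TPM + 1), changes of low genes are understated.

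Balance of direction depended on the scaling of the libraries. With median-ratio scaling 2131 genes rose and 2329 fell in agreement, and after removal of ribosomal RNA genes 2146 rose and 2173 fell. Ribosomal RNA genes held 4.42% to 6.26% of TPM in primed and 1.43% to 3.48% in naive-like libraries, which do not overlap. Their part in the balance of directions was examined through that removal alone.

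Agreeing rises took 14.8% to 15.1% of TPM in the primed libraries and 20.8% to 21.6% in the naive-like ones. Agreeing falls took 15.8% to 17.8% in primed and 8.35% to 10.4% in naive-like libraries. Since these genes were chosen by direction on the same values, only the size of the shares is informative, not their direction. Levels differed between the directions as well. Between 3 and 10 TPM, 17.7% of genes fell and 14.1% rose, whereas between 30 and 100 TPM 22.4% rose and 10.9% fell. Small rises of well expressed genes and large falls of modestly expressed genes thus both entered the counts.

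**Figure D1:**
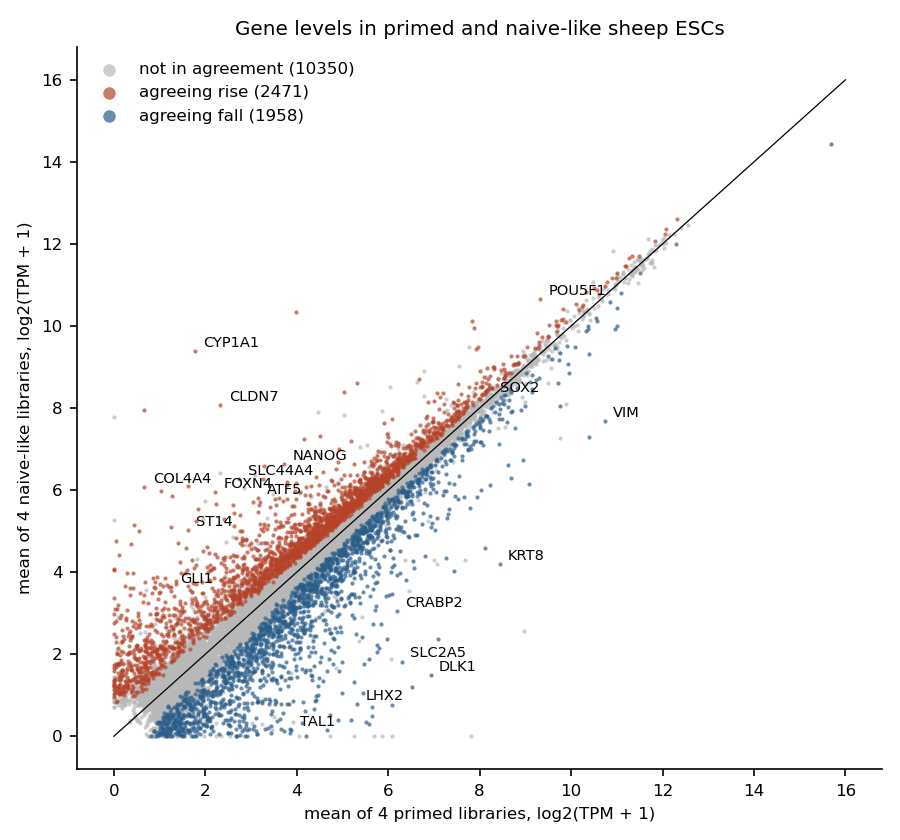
Mean level of each tested gene in 4 primed libraries (horizontal) and 4 naive-like libraries (vertical), both as log2(TPM + 1), with 1 point per gene and the line of equal levels. The 2471 agreeing rises lie above the line and the 1958 agreeing falls below it, with CYP1A1, CLDN7 and COL4A4 far above and TAL1, SLC2A5 and DLK1 far below.

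Some of the named rises were in genes known from epithelial surfaces, picked for what they encode and forming no list of their own. PRSS8 encodes prostasin, a membrane-anchored serine protease of epithelia. It was at 6.08 and 4.96 TPM in line A, 1.4 and 2.49 TPM in line B, 48.7 and 49.2 TPM in feeder-free naive-like cells and 50.4 and 48.7 TPM on MEFs. ST14 encodes matriptase, the transmembrane protease that acts with prostasin in epithelia, and it was at 2.93 and 2.99 TPM in line A, 1.39 and 0.935 TPM in line B, 34.1 and 35.5 TPM in feeder-free naive-like cells and 26.3 and 29.9 TPM on MEFs. Both stood at higher levels in line A than in line B, and every naive-like library was above every primed library, as for every agreeing rise. On the log2 scale PRSS8 rose by 3.54 ± 0.295 (SE) and ST14 by 3.47 ± 0.235 (adjusted p = 1.45e-05 and 3.81e-06). SPINT1, which encodes the inhibitor of matriptase HAI-1, was at 1.95 to 3.77 TPM in primed and 22 to 26.1 TPM in naive-like libraries and rose by 2.59 ± 0.148. SCNN1A, the alpha subunit of the epithelial sodium channel, whose activity prostasin raises, was at 0.218 to 0.586 TPM in primed and 13 to 16.4 TPM in naive-like libraries (3.56 ± 0.121). TMPRSS2, a protease of the same family as matriptase, rose by 2.13 ± 0.15 from low levels (0.0698 to 0.26 TPM in primed and 3.24 to 5.34 TPM in naive-like libraries). These genes were picked from agreeing rises, so their common direction in both naive-like cultures follows from the choice. The keratin genes KRT8 and KRT18 went the other way. KRT8 was at 283 to 414 TPM in primed and 15.2 to 19.6 TPM in naive-like libraries, and KRT18 at 197 to 246 TPM in primed and 44.8 to 48.2 TPM in naive-like libraries.

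PPFIBP2, a member of the liprin scaffold family, was at 1.66 and 1.56 TPM in line A, 1.03 and 1.28 TPM in line B, 36.3 and 32.6 TPM in feeder-free naive-like cells and 33.7 and 30.4 TPM on MEFs. GPR160, an orphan G protein-coupled receptor, was at 2.11 to 3.37 TPM in primed and 40.1 to 50.8 TPM in naive-like libraries and rose by 3.71 ± 0.121. SLC44A4, a transporter of the choline transporter-like family, was at 7.78 and 6.58 TPM in line A, 4.59 and 3.82 TPM in line B, 76.3 and 81.9 TPM in feeder-free naive-like cells and 73.3 and 71.4 TPM on MEFs. For PPFIBP2 (3.85 ± 0.105) and SLC44A4 (3.56 ± 0.172) the 4 naive-like libraries lay close together. ADIRF, described as a regulatory factor of fat cell formation in human, was listed at 0 in every primed library and stood at 15.3 to 16.4 TPM in the naive-like libraries. By absolute level, one of the largest gains was in LOC101111566, an uncharacterised ID, at 12.3 and 11.3 TPM in line A, 15.1 and 20.2 TPM in line B, 1486 and 1485 TPM in feeder-free naive-like cells and 1099 and 1099.8 TPM on MEFs (6.38 ± 0.177).

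Among the largest falls were receptors, ligands and enzymes of varied kinds. SLC2A5, the fructose transporter, was at 81.8 and 73.5 TPM in line A, 79.5 and 74.6 TPM in line B, 3.66 and 2.36 TPM in feeder-free naive-like cells and 2.01 and 2.1 TPM on MEFs. PRTG, protogenin, a receptor of the immunoglobulin superfamily found in the early neural plate of mouse, was at 19.2 to 29.8 TPM in primed and 0.0319 to 0.215 TPM in naive-like libraries. GREB1L, which is required for kidney and inner ear development in human and mouse, was at 38.1 to 46.8 TPM in primed and 0.58 to 1.53 TPM in naive-like libraries. DPYS, dihydropyrimidinase of pyrimidine breakdown, was at 20.4 to 36.3 TPM in primed and 0.239 to 0.404 TPM in naive-like libraries. All 4 fell more than 4-fold, with log2 changes of −4.49 ± 0.133 for SLC2A5, −4.50 ± 0.152 for PRTG, −4.41 ± 0.165 for GREB1L and −4.47 ± 0.177 for DPYS. ARHGAP29 fell (−3.93 ± 0.138). KITLG, the ligand of the receptor KIT, which germ cells and blood progenitors need, was at 51.7 and 36.5 TPM in line A, 15.8 and 19.9 TPM in line B, 0.20 and 0.804 TPM in feeder-free naive-like cells and 2.4 and 0.962 TPM on MEFs. KITLG was higher in line A than in line B, and all naive-like libraries were below both lines (−3.89 ± 0.402). TSPYL5 was at 14.9 to 19.6 TPM in primed libraries and listed at 0 in every naive-like library.

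**Figure D2:**
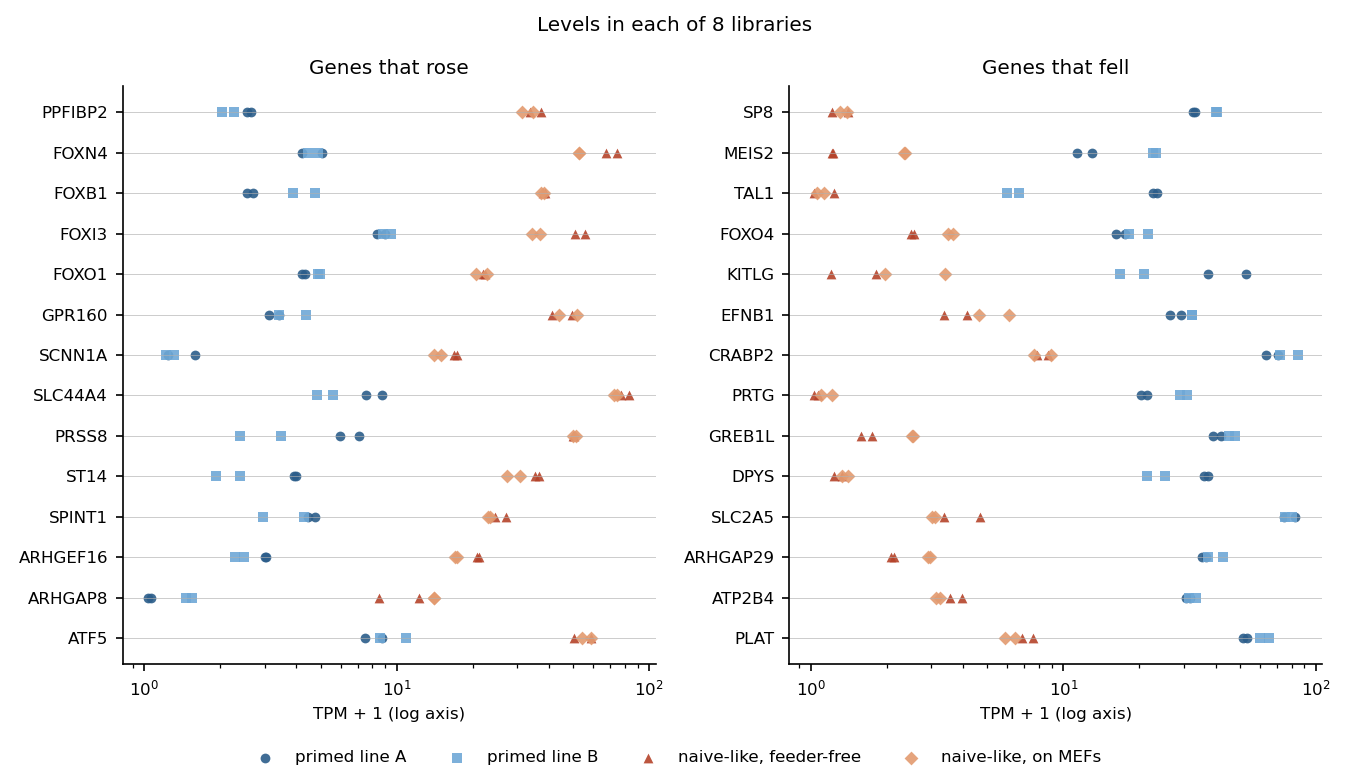
TPM + 1 on a log axis in each of the 8 libraries for 14 genes that rose and 14 that fell, with circles for primed line A, squares for primed line B, triangles for feeder-free naive-like cells and diamonds for naive-like cells on MEFs. No gene shown has a naive-like library within the range of its primed libraries, as holds for every agreeing gene. Lines A and B stand apart for ST14, PRSS8, TAL1, KITLG, MEIS2 and SLC44A4, among others.

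Homeobox, SOX and bHLH factors fell more often than they rose. In the homeobox family 11 of 64 tested members rose (17.2%) and 24 fell (37.5%), with a median log2 change of −0.32. Of the SOX factors 2 of 13 tested members rose and 7 fell. Among the bHLH factors of differentiation 3 of 17 tested members rose and 8 fell. Among the named falls, PAX6, needed for eye and forebrain, was at 7.58 to 12.7 TPM in primed and 0 to 0.481 TPM in naive-like libraries, and RAX, the retinal homeobox factor, at 6.28 to 8.11 TPM in primed and 0.0759 to 0.177 TPM in naive-like libraries. MEIS2, a partner of PBX factors, was at 10.3 and 12 TPM in line A, 21.7 and 22.2 TPM in line B, 0.213 and 0.225 TPM in feeder-free naive-like cells and 1.36 and 1.35 TPM on MEFs and fell (−3.30 ± 0.32). Each of these 3 factors was higher in all primed libraries than in any naive-like library, as was every agreeing fall. TAL1, the bHLH factor of early blood formation, was at 22.5 and 21.7 TPM in line A, 4.98 and 5.68 TPM in line B, 0.233 and 0.0253 TPM in feeder-free naive-like cells and 0.124 and 0.0538 TPM on MEFs, a log2 change of −3.45 ± 0.448. SOX4 (−1.32 ± 0.152) and SOX9 (−1.26 ± 0.17) fell too.

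Other factors rose. In the homeobox family these included HOPX, an atypical homeodomain protein that does not bind DNA, which rose by 1.79 ± 0.267. Forkhead factors split, as 7 of 29 tested members rose (24.1%) and 9 fell (31%). FOXN4, a factor of retinal and spinal cord progenitors in mouse, was at 4.06 and 3.23 TPM in line A, 3.9 and 3.45 TPM in line B, 73.7 and 66.5 TPM in feeder-free naive-like cells and 51.9 and 51.6 TPM on MEFs (3.72 ± 0.127). FOXB1 rose by 3.50 ± 0.183, FOXI3 by 2.28 ± 0.152 and FOXO1 by 2.25 ± 0.0833, whereas FOXB2 (−2.79 ± 0.541) and FOXO4 (−2.60 ± 0.155) fell, and FOXA1 was at 5.28 to 5.67 TPM in primed and 0 to 0.0454 TPM in naive-like libraries. Related factors thus moved in opposite directions, with FOXB1 against FOXB2 and FOXO1 against FOXO4. Among nuclear receptors 9 of 29 tested members rose and 7 fell, with rises in RARA (0.87 ± 0.081) and NR2F6 (0.93 ± 0.0955) and a fall in NR6A1 (−0.98 ± 0.0599). NR6A1, the germ cell nuclear factor that represses POU5F1 in mouse, was at 257 to 288 TPM in primed and 126 to 147 TPM in naive-like libraries. Of the GATA, TFAP2, T-box and ZIC factors 3 of 10 tested members rose and 3 fell, with a median log2 change of 0.17, and ZIC5, a zinc finger factor, rose by 0.81 ± 0.104.

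Hedgehog ligands are received by PTCH1, which in their absence restrains the receptor Smoothened, and GLI factors carry the signal to genes that include GLI1, PTCH1 and HHIP themselves. GLI1, the transcriptional activator, was at 1.34 and 1.43 TPM in line A, 1.4 and 1.41 TPM in line B, 11.6 and 12 TPM in feeder-free naive-like cells and 10.8 and 11.1 TPM on MEFs. HHIP, a ligand-binding feedback inhibitor, was at 1.29 and 1.57 TPM in line A, 1.41 and 0.975 TPM in line B, 13.8 and 12.1 TPM in feeder-free naive-like cells and 10.3 and 9.81 TPM on MEFs. PTCH1, the receptor, was at 17.7 to 19.3 TPM in primed and 35 to 44.7 TPM in naive-like libraries. The naive-like and primed libraries were separate in each of the 3 genes, as in every agreeing gene. The rises were 2.37 ± 0.0803 for GLI1, 2.43 ± 0.13 for HHIP and 1.01 ± 0.0814 for PTCH1 (adjusted p = 6.66e-08, 8.87e-07 and 1.17e-05, limma). Against this, the ligand gene DHH fell (−1.35 ± 0.111), to under 1 TPM on average, and SUFU, an inhibitor of GLI factors, fell (−0.49 ± 0.0958). SUFU no longer agreed without replicate 1 or 2 of the on-MEF culture, replicate 1 or 2 of line B or replicate 1 of line A, where its log2 change was −0.53 to −0.44. Over the pathway list 4 of 17 tested members rose and 3 fell.

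Retinoic acid is made from retinol by dehydrogenases, carried by the CRABP proteins and read by RAR and RXR receptors. CRABP2 was at 69.8 and 62.2 TPM in line A, 70.9 and 83.9 TPM in line B, 7.65 and 6.87 TPM in feeder-free naive-like cells and 7.91 and 6.67 TPM on MEFs, and CRABP1 at 23.2 to 30.9 TPM in primed and 2.04 to 5.93 TPM in naive-like libraries. Both carriers fell (−3.13 ± 0.0965 and −2.53 ± 0.242). LRAT, which stores retinol as esters, fell (−0.74 ± 0.0895). RDH10, which makes retinaldehyde from retinol, rose by 0.97 ± 0.145. In the retinoic acid list 3 of 14 tested members rose (21.4%) and 5 fell (35.7%), on few genes.

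Eph receptors and ephrins are membrane-bound partners that steer cell sorting. In this family 5 of 19 tested members rose (26.3%) and 8 fell (42.1%), with a median log2 change of −0.44. The ephrin EFNB1 was at 28.1 and 25.3 TPM in line A, 31.3 and 31.2 TPM in line B, 3.14 and 2.37 TPM in feeder-free naive-like cells and 3.64 and 5.07 TPM on MEFs and fell (−2.75 ± 0.166), while EFNB2, an ephrin of the same class, rose by 0.90 ± 0.0642. EPHB1 (−2.03 ± 0.135) and EPHA7 (−1.69 ± 0.263) fell. EPHA1 rose by 1.65 ± 0.090, as did the ligands EFNA1 (0.91 ± 0.091) and EFNA2 (0.78 ± 0.0823). Receptors and ligands were found in both directions.

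Of the cytokine, chemokine and receptor genes, 8 of 51 tested members rose and 10 fell. CNTFR, a receptor subunit for ciliary neurotrophic factor, had the largest fall of the list (−5.33 ± 0.116). ACKR3, a scavenger receptor for CXCL12, was at 25.5 to 32.4 TPM in primed and 6.6 to 9.95 TPM in naive-like libraries. IL27RA, a subunit of the interleukin-27 receptor, was at 54.7 to 57.2 TPM in primed and 102 to 112 TPM in naive-like libraries and rose by 0.91 ± 0.0477.

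Interferon-stimulated and antigen presentation genes fell more often than they rose, as 3 of 32 tested members rose (9.38%) and 12 fell (37.5%). PSMB8, PSMB9 and PSMB10, which encode the catalytic subunits of the immunoproteasome that cuts peptides for MHC class I, all fell. PSMB9 was at 19.6 and 24.4 TPM in line A, 13.5 and 15 TPM in line B, 5.42 and 2.36 TPM in feeder-free naive-like cells and 1.98 and 1.66 TPM on MEFs, a log2 change of −2.37 ± 0.282. PSMB8 was at 25 to 31.1 TPM in primed and 8.9 to 11.5 TPM in naive-like libraries (−1.33 ± 0.103). TAP2, a subunit of the transporter that brings those peptides into the endoplasmic reticulum, fell (−1.21 ± 0.121). TAP1 (−0.50 ± 0.18) and TAPBP (−0.53 ± 0.175), chosen after their values were seen, did not agree. Both were lower in the comparison of states (adjusted p = 0.0431 and 0.0295, limma). Feeder-free cells did not differ from line B in either gene (adjusted p = 0.759 and 0.125, limma). Nor did they differ from line A in TAPBP (adjusted p = 0.0873, limma). Both genes were lower on MEFs than in the feeder-free culture (log2 difference −0.68 ± 0.0893 and −0.70 ± 0.0839, adjusted p = 0.00625 and 0.00373, limma). B2M, the light chain of MHC class I, was at 307 and 319 TPM in line A, 268 and 282 TPM in line B, 240.1 and 214 TPM in feeder-free naive-like cells and 125 and 111 TPM on MEFs and was chosen after its values were seen. It fell (−0.84 ± 0.23), and it was lower on MEFs than in the feeder-free culture as well (log2 difference −0.94 ± 0.078, adjusted p = 0.000567, limma, where 5.16% of all genes were called). PARP14 (−1.45 ± 0.155), induced by interferon, fell as well, while IFIT2 (1.02 ± 0.187) and IFI30 (1.65 ± 0.283) rose. B2M no longer agreed without replicate 2 of the feeder-free culture or replicate 2 of line B, where its log2 change was −0.97 to −0.86. The comparison of states for B2M did not pass with line B alone as primed (adjusted p = 0.0936) or with group means (adjusted p = 0.102), both in limma. IFI30 reduces disulfide bonds of antigens in lysosomes.

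Secreted and surface genes moved in both directions. Of the secreted and membrane proteases 12 of 58 tested members rose and 16 fell, and of the protease inhibitors 7 of 27 tested members rose and 5 fell. PLAT, tissue plasminogen activator, was at 52.2 and 50.2 TPM in line A, 64 and 59 TPM in line B, 5.83 and 6.61 TPM in feeder-free naive-like cells and 5.45 and 4.86 TPM on MEFs (−3.10 ± 0.105). CTSK, a cathepsin that degrades collagen, fell (−3.0 ± 0.121). By contrast A2M, a broad inhibitor of proteases in plasma, rose by 1.40 ± 0.0984 and SERPINB5, maspin, by 2.01 ± 0.139.

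Heparan sulfate is carried by syndecans and glypicans and binds FGF and other ligands. Among cores and modifying enzymes 8 of 32 tested members rose (25%) and 8 fell (25%). Both shares were above the background, on few genes and without a test of the list. The falls held the cores SDC2 at 59.2 to 77.3 TPM in primed and 14.6 to 18.2 TPM in naive-like libraries, SDC3 (−1.45 ± 0.0903), SDC4 (−1.11 ± 0.0532) and GPC3 (−1.74 ± 0.103). Not every core was lower. GPC4 (0.34 ± 0.0743) and SDC1 (0.17 ± 0.0599), chosen after their values were seen, were higher in the comparison of states but did not agree (adjusted p = 0.00457 and 0.0443, limma). Sulfotransferases that act late on the chain were among the rises, with HS3ST3A1 (1.30 ± 0.121), HS3ST6 (1.00 ± 0.133) and HS3ST2 (1.41 ± 0.18), all at low levels. The polysialyltransferases ST8SIA2 (−1.49 ± 0.13) and ST8SIA4 (−1.61 ± 0.158), which modify NCAM1, fell, and NCAM1 itself was at 19.8 to 28.3 TPM in primed and 3.74 to 6.17 TPM in naive-like libraries (−2.05 ± 0.169). These enzymes and their substrate were named as agreeing falls, so their common direction follows from the choice. C1GALT1, which builds the core of mucin-type O-glycans, fell (−1.59 ± 0.113), and FUT2, which adds fucose to surface glycans, rose by 1.32 ± 0.156. In the tetraspanin list 2 of 26 tested members rose and 7 fell. TSPAN12, a partner of the Norrin receptor, was at 47.9 to 75 TPM in primed and 156 to 174 TPM in naive-like libraries, whereas TSPAN5 fell (−1.97 ± 0.0979). Of 10 protocadherins tested 5 fell, among them PCDH19 (−1.63 ± 0.209), and 2 rose, among them PCDH9 (1.05 ± 0.185).

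Regulators of the cytoskeleton moved both ways. ARHGEF16 was at 1.29 to 2.05 TPM in primed and 16 to 20.2 TPM in naive-like libraries and ARHGAP8 at 0.0341 to 0.544 TPM in primed and 7.51 to 13.1 TPM in naive-like libraries, and they rose by 2.82 ± 0.128 and 3.25 ± 0.202. Actomyosin genes gave 11 rises and 14 falls among 45 tested. The median of that list, −0.01, changed sign with the scaling. CNN3, a calponin (−0.94 ± 0.0868), and VCL, vinculin of cell adhesions (−0.87 ± 0.122), fell, while TPM2, a tropomyosin, rose by 1.42 ± 0.147, MYO1E by 1.19 ± 0.0592 and MYH14, a nonmuscle myosin heavy chain, by 1.64 ± 0.187. TMSB4X, the thymosin that holds actin monomers, was among the most abundant genes that fell, at 1946 to 2172 TPM in primed and 939 to 1080.3 TPM in naive-like libraries. In membrane traffic, 14 of 53 RAB GTPases rose (26.4%) and 5 fell (9.43%), but the median log2 change of the list was −0.04. RAB20 (2.31 ± 0.15) and RAB27A (1.86 ± 0.123) rose and RAB27B fell (−1.39 ± 0.0995). RAB27A and RAB27B both act in secretion. AP1M2, the epithelial subunit of the AP-1 sorting adaptor, was at 0.222 to 0.499 TPM in primed and 30.7 to 35.9 TPM in naive-like libraries.

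Neuronal and synaptic genes fell more often than they rose. In that list 4 of 47 tested members rose (8.51%) and 19 fell (40.4%), and the median log2 change was −0.41. NEFM, a neurofilament, was at 8.29 to 11.5 TPM in primed and 0.136 to 0.24 TPM in naive-like libraries and fell (−3.16 ± 0.125). DPYSL3, which acts in axon growth, was at 162 and 158 TPM in line A, 155 and 151 TPM in line B, 33.6 and 29.2 TPM in feeder-free naive-like cells and 51.9 and 51.3 TPM on MEFs, a log2 change of −1.93 ± 0.173. NLGN3, a postsynaptic adhesion protein, fell (−1.59 ± 0.118). Against the list, L1CAM, an adhesion molecule of axons, rose by 1.08 ± 0.0662 and the G protein subunit GNAO1 by 0.55 ± 0.084. Summed over the list, TPM were 1896 to 1968 in primed and 1782 to 1833 in naive-like libraries, so the sum moved little while many low members fell. Among kinesins 2 of 34 tested members rose and 5 fell, with KIF21A rising by 1.70 ± 0.114 and KIF21B falling (−2.18 ± 0.133). Of 56 ciliary genes 2 rose and 6 fell, TULP3, which brings receptors into the cilium, among the latter (−1.78 ± 0.102).

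Solute carriers as a class lay near the background. Of 225 solute carriers tested 44 rose (19.6%) and 31 fell (13.8%). SLC16A13 (2.78 ± 0.215), a monocarboxylate transporter, rose, and SLC16A3 (−1.83 ± 0.162), which exports lactate, fell. SLC1A2, a glutamate transporter, rose by 2.76 ± 0.116. Among ion channels 21 of 94 tested members rose (22.3%) and 15 fell (16%). CLIC6, of the chloride intracellular channel family, was at 1.52 to 2.65 TPM in primed and 51.9 to 85.4 TPM in naive-like libraries. KCNQ3, a potassium channel, rose by 1.61 ± 0.113 and the calcium channel CACNA1A fell (−1.5 ± 0.17). In the list of ABC transporters and ATPase pumps 14 of 54 tested members rose and 7 fell. ABCB1, the multidrug exporter, rose by 2.30 ± 0.208 to an average of 5.21 TPM. ATP2B4, a calcium pump of the plasma membrane, was at 30.6 and 29.6 TPM in line A, 32.4 and 30.4 TPM in line B, 2.98 and 2.57 TPM in feeder-free naive-like cells and 2.24 and 2.14 TPM on MEFs and fell (−3.19 ± 0.0909).

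In metabolism, LDHA, lactate dehydrogenase, was at 706 to 977 TPM in primed and 207 to 318 TPM in naive-like libraries and fell (−1.71 ± 0.155). Of aldehyde and alcohol handling enzymes 11 of 41 tested members rose (26.8%) and 7 fell (17.1%). ALDH1L1, an enzyme of folate metabolism, rose by 1.5 ± 0.224, and ALDH18A1, which makes proline precursors, fell (−1.57 ± 0.241). EPHX1, an epoxide hydrolase of foreign compounds, was at 2.01 to 2.87 TPM in primed and 14.3 to 18.5 TPM in naive-like libraries and rose by 2.35 ± 0.115. For phospholipid enzymes, 19 of 122 tested members rose and 18 fell, and the median of that list, 0.00, also changed sign with the scaling. LPCAT3, which puts polyunsaturated chains into phospholipids, rose by 1.25 ± 0.145 and PIP4K2C by 1.22 ± 0.0708. SGMS2, a sphingomyelin synthase, fell (−2.11 ± 0.145). AK3, a mitochondrial adenylate kinase, rose by 1.77 ± 0.114, and in nucleotide synthesis 10 of 48 tested members rose and 4 fell. In the ATF4 and amino acid starvation list, 5 of 36 tested rose and 7 fell. ATF5, a factor of that response, was at 7.76 and 6.48 TPM in line A, 9.85 and 7.59 TPM in line B, 49.5 and 57.6 TPM in feeder-free naive-like cells and 58 and 53.1 TPM on MEFs (2.65 ± 0.112). DDIT4, an inhibitor of mTORC1 induced by stress, was at 346 to 432 TPM in primed and 87.2 to 107 TPM in naive-like libraries (−2.0 ± 0.0989). The named members of the list did not share a direction.

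Genes that build ribosomes had the highest share of rises among the 50 lists examined. Of 90 ribosome biogenesis genes tested, 46 rose (51.1%) and NLE1 alone fell (−0.81 ± 0.0653), with a median log2 change of 0.37. The rises were small and broad. RRS1, of the large subunit pathway, was at 29.98 and 31 TPM in line A, 31.9 and 35.5 TPM in line B, 68.2 and 73.4 TPM in feeder-free naive-like cells and 58.8 and 65.2 TPM on MEFs and rose by 1.03 ± 0.0801. UBTF, which activates RNA polymerase I, was at 41.5 to 46.9 TPM in primed and 81.1 to 91.7 TPM in naive-like libraries (0.95 ± 0.0614), and POLR1G, a subunit of that polymerase, rose by 0.89 ± 0.0747. RRP9, a component of the U3 particle, rose by 0.94 ± 0.0742. The median of the list stayed between 0.31 and 0.38 under every scaling tried. Structural ribosomal proteins did not follow the same course in total, at 19.1% to 20.6% of TPM in primed and 20.0% to 20.7% in naive-like libraries, which overlap.

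Genes of other steps of protein production also rose more often than they fell. Of translation factors 19 of 69 tested members rose (27.5%) and 4 fell (5.8%). EIF4G1, the scaffold of the cap complex, was at 189 to 210.2 TPM in primed and 274 to 295 TPM in naive-like libraries and rose by 0.50 ± 0.0464, whereas EIF4EBP1, which blocks that complex, fell (−0.88 ± 0.0954). EEF1A2, the elongation factor of muscle and neurons, rose by 1.95 ± 0.292. Of aminoacyl-tRNA synthetases 10 of 38 tested members rose and 1 fell, with VARS1 at 117 to 132 TPM in primed and 181 to 188 TPM in naive-like libraries, but 6 rose under median-ratio scaling. In the endoplasmic reticulum, 12 of 48 tested members rose (25%) and 2 fell (4.17%). HSPA5, the main chaperone there, was at 252 and 233 TPM in line A, 295 and 302 TPM in line B, 491 and 487 TPM in feeder-free naive-like cells and 383 and 376 TPM on MEFs (0.68 ± 0.117). CRELD2 (1.23 ± 0.138) and MANF (0.70 ± 0.11), secreted in endoplasmic reticulum stress, rose with it, and so did the stress sensor ERN1 (0.77 ± 0.102). FKBP14, a foldase for collagen, fell (−1.19 ± 0.127).

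**Figure D3:**
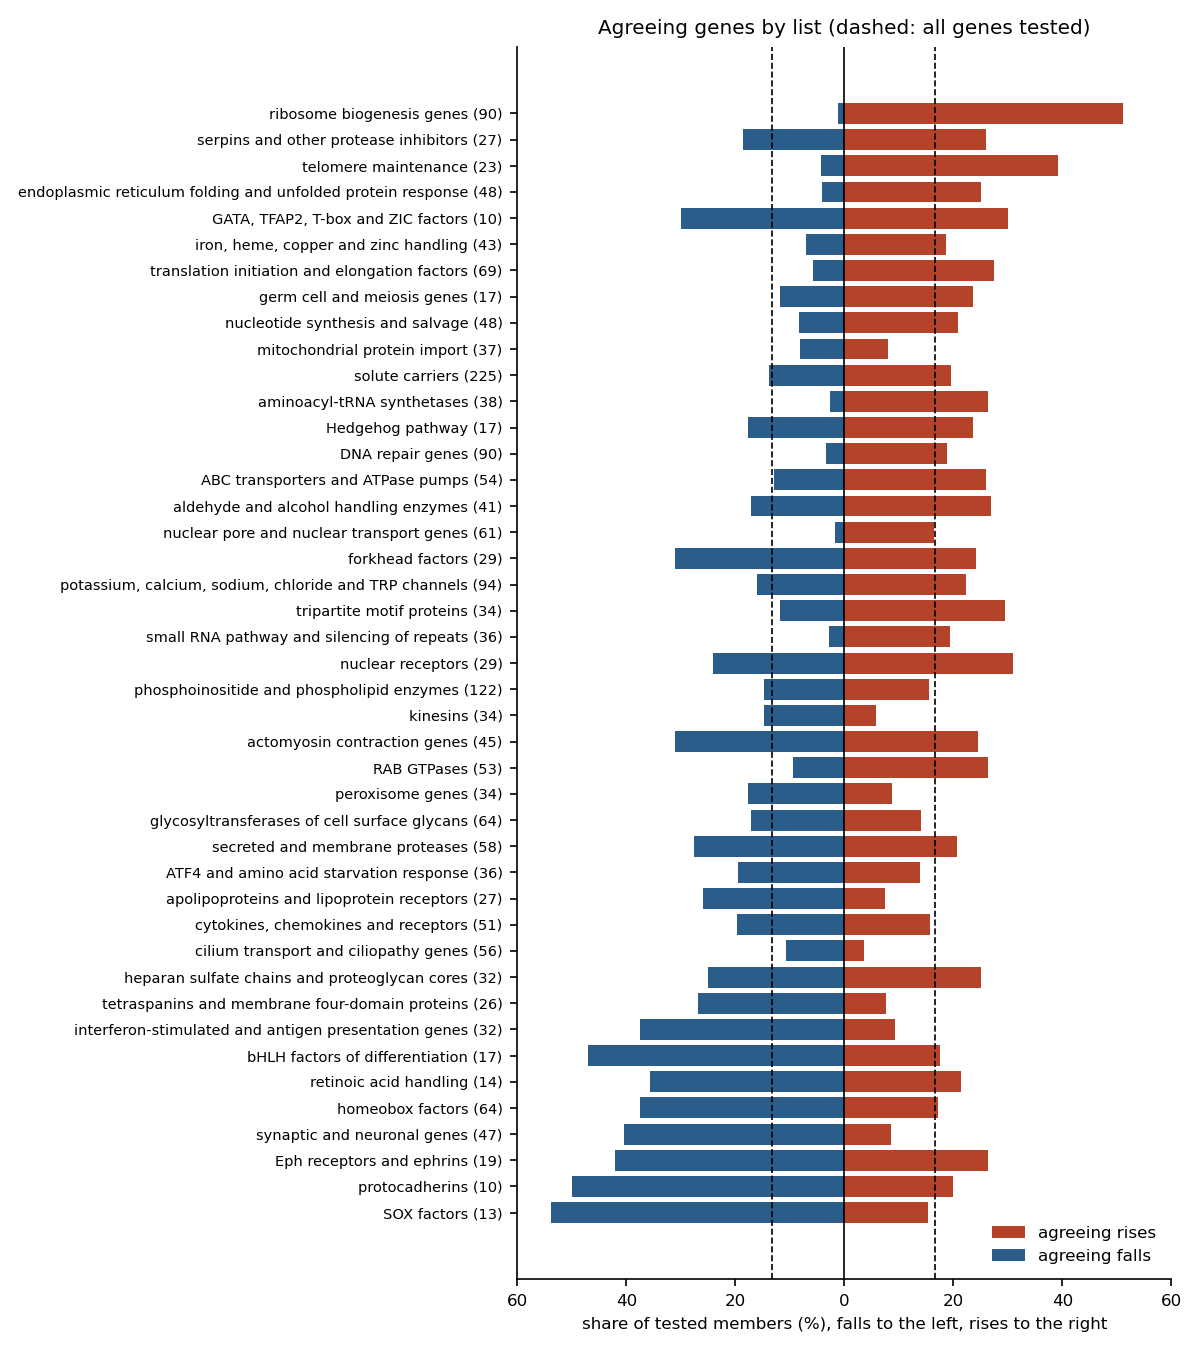
Share of tested members of each list that rose (right) or fell (left) in agreement, in percent, with the number tested in brackets, for most lists with at least 10 tested members ordered by median log2 change. Dashed lines mark 16.7% rises and 13.2% falls over all genes tested, and ribosome biogenesis reaches 51.1% rises while homeobox factors reach 37.5% falls.

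**Figure D4:**
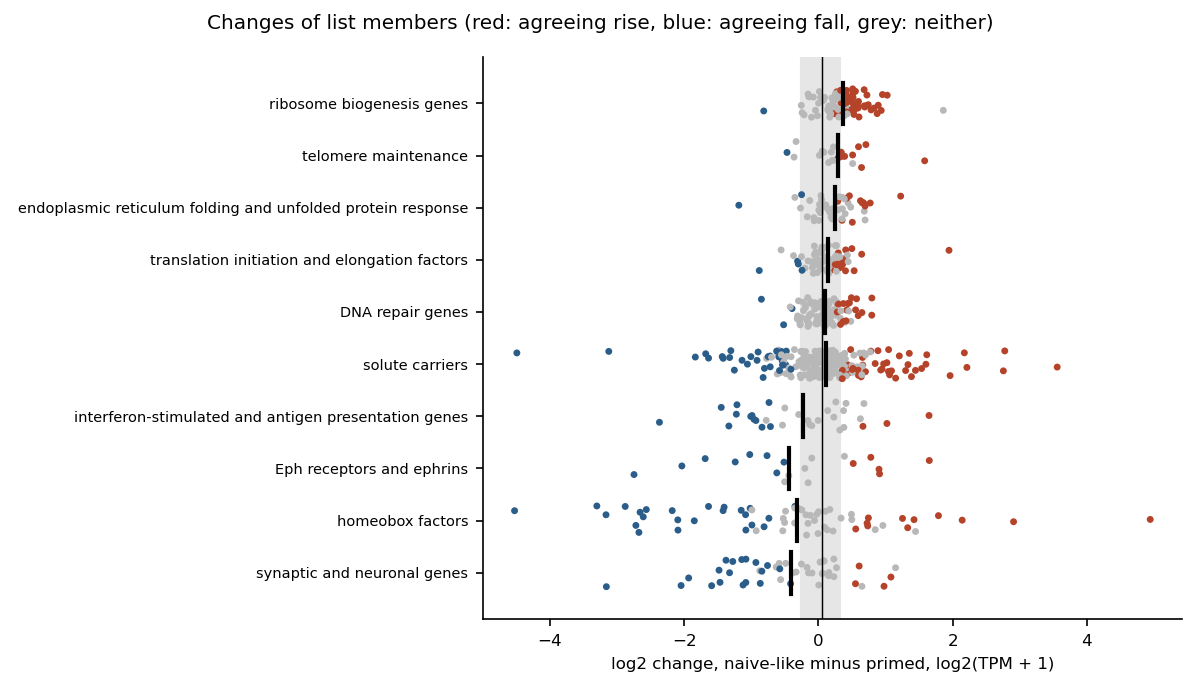
Log2 change (naive-like minus primed, on log2(TPM + 1)) of each tested member of 10 lists, with red for agreeing rises, blue for agreeing falls, grey for the rest and a black bar at the median of the list. The thin line is the median of all genes tested (0.05) and the grey band their interquartile range, and ribosome biogenesis genes lie mostly above it in a narrow cloud while homeobox factors spread widely on both sides.

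In the nucleus, telomere maintenance genes gave 9 rises and 1 fall among 23 tested, and shared DKC1 (0.60 ± 0.070) and NHP2 (0.71 ± 0.0946) with ribosome biogenesis. TERT, the catalytic subunit of telomerase, was at 2.57 and 2.47 TPM in line A, 1.01 and 0.503 TPM in line B, 6.28 and 6.66 TPM in feeder-free naive-like cells and 6.63 and 6.11 TPM on MEFs. It rose by 1.58 ± 0.261, and line A stood above line B. RIF1, which acts at telomeres and in replication timing, rose by 0.64 ± 0.112, while STN1, which caps telomere ends, fell (−0.47 ± 0.0849). RIF1 no longer agreed without replicate 1 of the feeder-free culture or replicate 1 or 2 of line B, where its log2 change was 0.58 to 0.67. STN1 no longer agreed without replicate 1 of the on-MEF culture, replicate 1 or 2 of line B or replicate 2 of line A, where its log2 change was −0.49 to −0.41. For DNA repair 17 of 90 tested members rose (18.9%) and 3 fell (3.33%), with XPC, the damage sensor of nucleotide excision repair, at 34.8 to 39.6 TPM in primed and 49.7 to 84.8 TPM in naive-like libraries. In the small RNA and repeat silencing list 7 of 36 tested members rose and 1 fell. DGCR8, the partner of DROSHA in microRNA processing, was at 42.3 to 56.7 TPM in primed and 93.1 to 98.3 TPM in naive-like libraries (0.93 ± 0.0844). HELLS, a chromatin remodeller needed for DNA methylation in mouse, rose by 0.89 ± 0.0839, MOV10, a helicase that restrains retroelements, by 1.31 ± 0.0798, and TRIM28, the corepressor of KRAB zinc finger proteins, by 0.48 ± 0.0456. TUT4, which adds uridine to RNA, fell (−0.76 ± 0.102). Among tripartite motif proteins TRIM36 rose by 2.08 ± 0.113, and TRIM11 was at 5.95 to 9.21 TPM in primed and 0 to 0.0955 TPM in naive-like libraries. In the germ cell list 4 of 17 tested members rose and 2 fell, with DMC1, the recombinase of meiosis, at 1.29 and 2.23 TPM in line A, 2.65 and 1.56 TPM in line B, 11.6 and 8.12 TPM in feeder-free naive-like cells and 23.5 and 15.4 TPM on MEFs (2.35 ± 0.283). Both cultures exceeded both lines, and the libraries on MEFs were higher than the feeder-free ones.

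A few genes were listed at 0 throughout one state. In all primed libraries this held for 10 genes that were at 1 TPM or more in all naive-like ones, among them ADIRF, PLEKHS1, SKAP1 and the TGF-beta family ligand GDF3. SKAP1, an adaptor of T cell signalling, was at 1.53 and 1.36 TPM in feeder-free cells and 3.45 and 2.97 TPM on MEFs. In the other direction 8 genes at 1 TPM or more in all primed libraries were listed at 0 in all naive-like ones, among them TSPYL5, the eye and pituitary factor SIX6 and LGI1, a secreted synaptic protein at 6.10 to 7.27 TPM in primed libraries. SIX6 was at 2.51 and 3.96 TPM in line A and 1.28 and 1.36 TPM in line B. Apart from ADIRF and TSPYL5, genes in this paragraph were chosen after their values were seen.

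Position in the annotation was examined for genes next to each other. Of 7887 neighbouring pairs with both genes tested, both agreed in 773 (9.80%), and 536 of those shared a direction (69.3%). From the shares of rises and falls over all genes tested, 8.98% of pairs would both agree and 50.7% of those would share a direction. These values were not tested, and neighbouring genes whose transcripts overlap can share reads. Among the 364 genes that changed at least 4-fold there were 12 neighbouring pairs, 10 of them in 1 direction and 2 of them overlapping. COL4A3 and COL4A4, chains of the same basement membrane collagen, rose together. COL4A3 was at 0.0114 to 0.144 TPM in primed and 18.5 to 24.9 TPM in naive-like libraries. FGF8, a growth factor of gastrulation, was at 0.485 and 0.462 TPM in line A, 0.415 and 0.582 TPM in line B, 5.29 and 5.71 TPM in feeder-free naive-like cells and 5.41 and 6.32 TPM on MEFs, and its neighbour NPM3, a nucleolar chaperone, at 44.9 and 54.2 TPM in line A, 22.3 and 20.2 TPM in line B, 155 and 148 TPM in feeder-free naive-like cells and 147 and 136 TPM on MEFs. They rose by 2.17 ± 0.0994 and 2.14 ± 0.284. TMEM63A (3.04 ± 0.171), a mechanosensitive channel, lies between EPHX1 and LOC101111566, and all 3 rose. BEGAIN, a postsynaptic protein gene, fell with its imprinted neighbour DLK1 (−2.73 ± 0.221 and −5.43 ± 0.139). KRT8 fell with KRT18, IGDCC3 (−5.31 ± 0.13) with IGDCC4 (−2.45 ± 0.189), and WFDC2 (2.62 ± 0.194) rose with LOC101113780 (2.23 ± 0.212). The pair of NANOG and SLC2A3, which does not overlap, went apart, as NANOG rose by 2.91 ± 0.193 while SLC2A3, a glucose transporter, was at 1574 and 1493 TPM in line A, 1157 and 1174 TPM in line B, 197 and 172 TPM in feeder-free naive-like cells and 126 and 126 TPM on MEFs and fell (−3.12 ± 0.163).

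**Figure D5:**
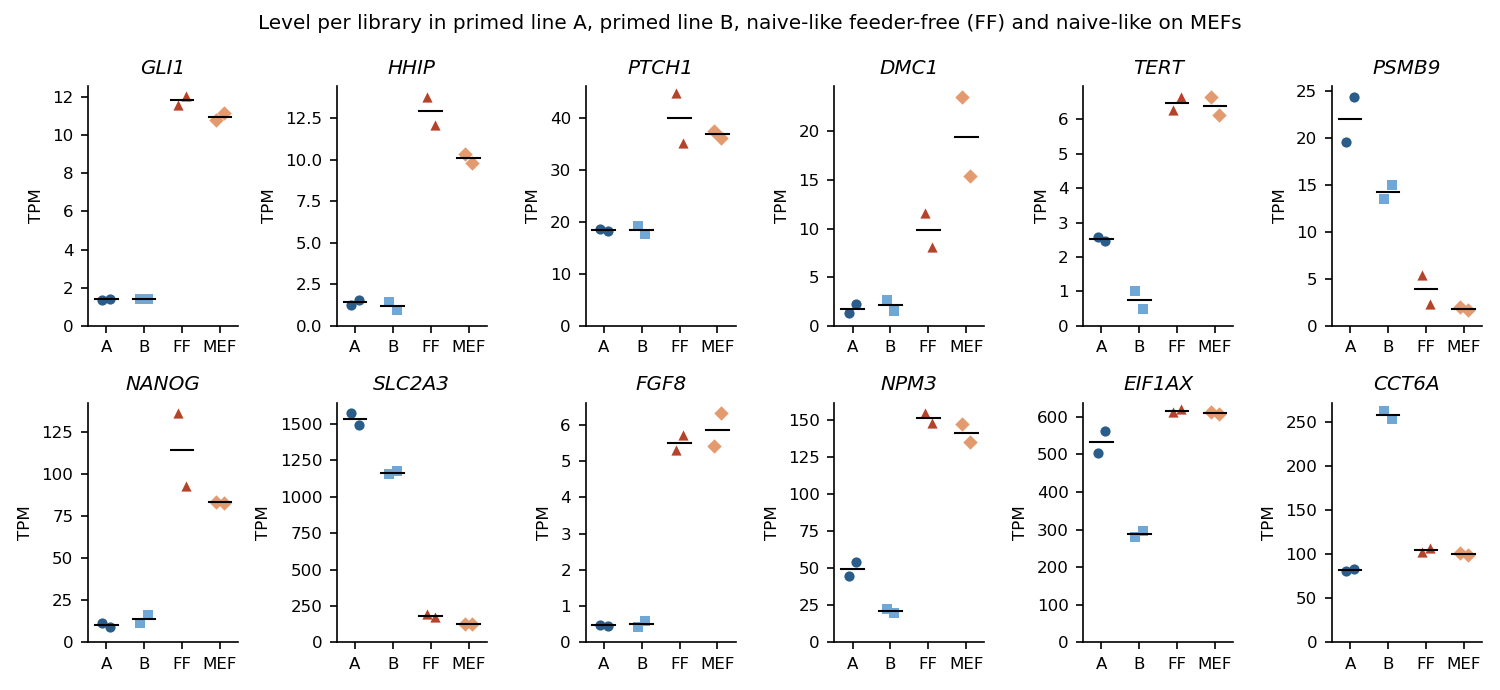
TPM in each library of primed lines A and B and of the naive-like feeder-free (FF) and on-MEF (MEF) cultures for 12 genes, with 2 points and a bar at the mean per group and axes from 0. GLI1, HHIP and PTCH1 are higher in both naive-like cultures, NANOG and its neighbour SLC2A3 move apart, FGF8 and NPM3 rise together, and for CCT6A the naive-like cultures lie between the lines.

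Agreement leaves out genes called in opposite directions in different pairs of groups. In 259 genes at least 1 pair of groups was called higher and another lower. Of these 172 also differed between lines A and B and 98 between the culture on MEFs and the feeder-free culture, as did 7.36% and 5.16% of all genes tested, and opposite calls favour such genes by construction. CCT6A, a subunit of the TRiC chaperonin chosen after its values were seen, was at 81.3 and 83.3 TPM in line A, 263 and 253 TPM in line B, 103 and 107 TPM in feeder-free naive-like cells and 102 and 99.5 TPM on MEFs. NES, nestin, an intermediate filament of progenitors chosen in the same way, was at 74.6 and 66.6 TPM in line A, 14.6 and 12.7 TPM in line B, 34.5 and 38.7 TPM in feeder-free naive-like cells and 39.1 and 41.3 TPM on MEFs. For neither gene did the comparison of states pass (adjusted p = 0.303 and 0.689). Others agreed although the lines differed, which was so for 302 of the 4429 agreeing genes. EIF1AX, an initiation factor that is X-linked in human, was at 503 and 561 TPM in line A, 279.9 and 296 TPM in line B, 611 and 621 TPM in feeder-free naive-like cells and 611 and 606 TPM on MEFs. Feeder-free naive-like cells were higher by 1.09 on the log2 scale than line B and by 0.21 than line A. Its rise over all libraries was 0.65 ± 0.21, and agreement was lost under median-ratio scaling, under quantile normalization and without ribosomal RNA genes. EIF1AX no longer agreed without replicate 1 or 2 of the on-MEF culture, replicate 1 or 2 of the feeder-free culture, replicate 1 or 2 of line B or replicate 1 of line A, where its log2 change was 0.48 to 0.77.

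Summed markers of other cell types differed between states for some lists and overlapped for others. Of 20 fibroblast markers tested 0 rose in agreement and 6 fell, and their summed TPM were 3002 to 3367 in primed and 876 to 1289 in naive-like libraries, with VIM at 1623 to 1848 TPM in primed and 126 to 286 TPM in naive-like libraries, TAGLN at 952 to 1037 TPM in primed and 423 to 497 TPM in naive-like libraries, and PDGFRB falling (−2.61 ± 0.173). The sum was thus carried by VIM and TAGLN. COL1A2, a fibrillar collagen of fibroblasts, was at 3.06 and 3.48 TPM in line A, 1.75 and 1.73 TPM in line B, 0.0468 and 0.219 TPM in feeder-free naive-like cells and 39 and 37 TPM on MEFs, so that it was highest in the libraries with MEFs. Both libraries on MEFs were above all others for 8 of the 20 markers, which were COL1A2, COL1A1, COL3A1, COL6A2, FBN1, LOX, PRRX1 and TWIST1. COL1A1 was at 48.2 to 63.2 TPM in primed libraries, 28 and 28.5 TPM in feeder-free cells and 157 and 155 TPM on MEFs, and PRRX1, a factor of mesenchyme, at 0 to 0.255 TPM in primed libraries, 0 and 0.0267 TPM in feeder-free cells and 6.84 and 8.54 TPM on MEFs. Their part in the results of the cultures on MEFs was not tested beyond the contrasts of feeder-free cells, which are part of the rule. Trophoblast markers summed to 503 to 678 TPM in primed and 104 to 110 TPM in naive-like libraries. Most of the primed sum was 2 keratins, KRT8 (283 to 414 TPM in primed and 15.2 to 19.6 TPM in naive-like libraries) and KRT18 (197 to 246 TPM in primed and 44.8 to 48.2 TPM in naive-like libraries). The factors CDX2, GATA2, DLX3, HAND1, TFAP2C and ASCL2 were under 1 TPM in every library and were not tested. Of 7 tested, 2 rose and 4 fell, the falls being the 2 keratins, TEAD4 and ELF5. TEAD4 was at 8.49 to 10.8 TPM in primed and 0.299 to 0.596 TPM in naive-like libraries. ELF5 was at 3.93 to 8.14 TPM in primed and 1.84 to 2.83 TPM in naive-like libraries. Against the sum, EOMES, a T-box factor, was at 0.210 to 0.628 TPM in primed and 28.3 to 34.0 TPM in naive-like libraries (4.45 ± 0.114), and VGLL1 at 0.0653 to 0.242 TPM in primed and 2.26 to 8.28 TPM in naive-like libraries (2.29 ± 0.299). Liver and gut endoderm markers summed to 410 to 511 and 104 to 124 TPM, with AFP, APOB, FABP1 and SERPINA1 listed at 0 in every library and APOA1 at 376 to 469 TPM in primed and 69.8 to 90.9 TPM in naive-like libraries. Of 8 of these markers tested, 0 rose and 3 fell. Muscle and heart markers summed to 239 to 251 and 146 to 217 TPM with MYOD1 and NPPA at 0, and 1 of 8 tested fell. Blood and endothelial markers summed to 17.1 to 38.0 and 15.9 to 21.8 TPM with PTPRC and HBB at 0, and 3 of 6 tested rose and 1 fell. Whether these markers come from separate cells was not tested.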

How the data were processed

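RNA sequencing of polyadenylated RNA gave 8 libraries in 4 groups of 2. The deposited table holds TPM for 28475 genes, which the authors estimated with Salmon, as named in the submitters' processing notes. The sources used here state neither its version nor the genome build and annotation. Whole columns were mapped to samples by their names. TPM were transformed to log2(TPM + 1), and the 14779 genes with 1 TPM or more in at least 2 libraries were tested with limma 3.58.1 in R 4.3.3, with a variance trend and Benjamini-Hochberg adjustment, two-sided, at 0.05. State was fitted over 8 libraries, and the 4 pairs of groups as contrasts in a single fit of 4 groups. The procedure was tested on simulated data without differences between lines or between cultures. There, agreement was reached by 35.8% of genes changed 1.5-fold, 77.6% of those changed 2-fold and 93.9% of those changed 4-fold. Lack of agreement is therefore not lack of change.

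Each log2 change is given with its standard error. Lists were described by counts and medians, without a test. Comparison, lists and genes were chosen with earlier results of these data known. The naming rule took agreeing genes: the 20 largest rises and 20 largest falls at a mean of at least 5 TPM with no overlap, the 12 rises and 12 falls with the largest TPM difference, up to 4 members per direction of each of 50 lists at a mean of at least 1 TPM, markers of other cell types, neighbouring pairs, and POU5F1, SOX2 and NANOG. A selection of these is printed, and 10 candidates whose agreement ended without a single library were left out after their values were seen. Some further genes and a list are not reported here. Neighbouring genes came from RefSeq's annotation ARS-UI_Ramb_v3.0, matched by symbol for 28429 genes and used for names and order alone. Genome and promoter sequence were not used here, so the planned promoter description was not made. Alternatives changed the pseudocount, filter, scaling, variance trend, threshold, replicate block, libraries and groups in the fit.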

Additional observations from a re-analysis of the deposited data

Results flagged for a closer look

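In 356 sets of 4 libraries of the same state, formed by most of the genes named in the report, 10 had a library apart from the other 3 by Dixon's criterion at the 95% level. All 10 were sets of naive-like libraries. The criterion flags about 1 in 20 sets of 4 like libraries by chance. Each set here joined 2 groups of 2, and most genes were chosen for agreement, so that rate cannot be set against the number found. Feeder-free replicate 1 was the library apart for A2M (42.0 TPM against 33.8 to 34.5 TPM), AP1M2 (30.7 against 35.1 to 35.9 TPM), COL4A3 (24.9 against 18.5 to 19.0 TPM), CTSK (5.30 against 3.99 to 4.15 TPM) and HELLS (269 against 247 to 249 TPM), which is 5 of the 10. Feeder-free replicate 2 was apart for LRAT (10.4 against 13.1 to 13.6 TPM), TRIM28 (514 against 477 to 482 TPM) and FOXA1 (0.0454 TPM, with the others listed at 0). On-MEF replicate 1 was apart for EPHA1 (13.7 against 16.6 to 17.1 TPM) and PAX6 (0.481 TPM against 0 to 0.0582 TPM). In each of these genes all naive-like libraries stayed on the same side of the primed libraries, which held for every agreeing gene.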

How the results depend on the processing

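All alternatives changed a single choice and were fixed with earlier results of these data known. Most counts stayed within 1.5 times the reported value. Agreeing changes of at least 2-fold numbered 268 rises and 371 falls with a pseudocount of 5, and 374 and 503 among genes with a mean of at least 5 TPM. At an adjusted p under 0.01, 2878 genes agreed, 1544 of them rises. Averaging the libraries of each group gave 4023 state calls, 2191 higher and 1832 lower, from fewer samples in the fit. With no overlap of libraries in place of the 4 pairs, 6759 genes met the rule, 3805 rises and 2954 falls. With the group as a random block 5848 genes passed for state. Without any single library, state calls numbered 6723 to 7101 (3725 to 4157 higher, 2897 to 3107 lower) and agreeing genes 3314 to 4132 (1759 to 2367 rises, 1523 to 1895 falls), of which 614 to 644 rises and 811 to 846 falls were at least 2-fold.

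The replicate numbers were not taken to pair libraries, since deviations of same-numbered libraries correlated at −0.0748 to 0.0973. With the replicate number as a block 7237 genes passed for state and 4466 agreed, and 0 of the 172 printed agreeing genes lost agreement. Of these 172, 5 lost agreement without a single library, 5 at an adjusted p under 0.01, 4 with no filter, 2 with no variance trend and 1 under another scaling. The first of these numbers is low by choice, since candidates that lost agreement without a single library had been left out. Most printed genes were chosen by the size of their change, so the other numbers do not stand for all agreeing genes either. Of all 4429 agreeing genes, 73.7% to 88.1% agreed in the same direction without any single library. The share was 65.0% at an adjusted p under 0.01, 88.5% with no filter and 90.2% with no variance trend. Under the other scalings it was 91.4% to 99.2%. Genes without a state call changed sign more readily. SOX2 was at −0.0278 with median-ratio scaling, −0.0184 with quantile normalization, −0.0229 without ribosomal RNA genes, −0.0459 with line B alone as primed and −0.00431 to 0.0549 without any single library. NES was at −0.13 to 0.69 without any single library and −0.86 with line A alone, CCT6A at 0.32 with line A alone, and COL1A1 at −0.12 to 0.70 without any single library. With feeder-free libraries alone COL1A2 was at −1.60, COL1A1 at −0.92 and PRRX1 at −0.10. The cause was not tested. Depth is unknown for TPM, which limits what can be said of genes listed at 0.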

Other observations

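Genes that differ between the primed lines showed which line the naive-like libraries lay nearer to. The 2 naive-like cultures were counted separately over 69 genes called at least 4-fold different between lines A and B. Each culture was nearer to line A in 50 and to line B in 19, and these were not all the same genes in the 2 cultures. The origin of the naive-like cells is not stated in the sources used here, and these counts are values alone.

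Genes that are X-linked in human were examined as well, and were chosen after their values were seen. USP9X was at 106 and 108 TPM in line A, 75.3 and 71.8 TPM in line B, 116 and 96.9 TPM in feeder-free naive-like cells and 121 and 114 TPM on MEFs. EIF2S3 was at 45.6 and 47.2 TPM in line A, 30.1 and 28.2 TPM in line B, 36.0 and 35.3 TPM in feeder-free naive-like cells and 36.7 and 34.9 TPM on MEFs. Both were lower in line B than in line A in limma (log2 difference −0.53 ± 0.0852 and −0.65 ± 0.0673, adjusted p = 0.0102 and 0.00116). ZFX was lower in line B too (−0.53 ± 0.121, adjusted p = 0.0382). KDM6A (adjusted p = 0.413) and KDM5C (adjusted p = 0.282) did not pass between the lines, nor did DDX3X, whose mean was higher in line B (0.13 ± 0.0649, adjusted p = 0.277).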
